A study of Mus musculus with 6 samples.

Results

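The genes described here are those of the mouse major histocompatibility complex (MHC) and of the antigen processing route that feeds it. They were chosen by symbol, as every listed gene whose symbol starts with H2- together with B2m, Tap1, Tap2, Tapbp, Cd74, Ciita, Nlrc5, Psmb8, Psmb9, Psmb10, Erap1, and Cd1d1, and not by their values. This gave 47 genes of the 27546 in the table, 35 of them with an H2- symbol. The distal colon of 3 Gm31629-/- mice and of 3 WT littermates was profiled by RNA-Seq. All 6 were C57BL/6 and 8 weeks old, had drunk water with 3% DSS over 7 days, and were sacrificed on day 8. The methods give the background more fully as C57BL/6J. DSS (dextran sulfate sodium) is a polymer that injures the colonic epithelium and produces colitis. Gm31629 is a long noncoding RNA gene on chromosome 1, which is deleted in every cell of the Gm31629-/- mice. Both groups had received DSS, and mice without DSS were not analysed here. Values are FPKM, which are fragments scaled by gene length and by mapped fragments of the library. The scaling is meant for comparing genes and mice, but does not correct for a few abundant transcripts that take up fragments.

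MHC class I molecules display peptides from inside the cell to CD8+ T cells and natural killer cells. The immunoproteasome cuts proteins into peptides, the TAP transporter carries them into the endoplasmic reticulum, ERAP1 trims them, and tapasin helps to load them onto a heavy chain paired with beta-2 microglobulin. MHC class II molecules display peptides from the endocytic route to CD4+ T cells. They are built from an alpha and a beta chain, are escorted by the invariant chain (Cd74), and receive peptide with the help of H2-DM, which H2-DO holds in check. Class II is constitutive on B cells and dendritic cells, and interferon gamma induces it on macrophages and other cells, intestinal epithelium among them, through the transactivator CIITA. NLRC5 is the corresponding transactivator of class I. Nonclassical class I genes of the Q, T, and M regions encode molecules with narrower or lipid, formyl peptide, or unconventional ligands, and C57BL/6 mice carry the b haplotype, in which the H2-E alpha chain gene is defective.

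Many of these genes share a promoter element, the SXY module, whose X box is bound by the RFX complex and whose Y box is bound by NF-Y. RefSeq promoter windows (GRCm38.p6, 250 bases before to 50 bases after the start) were found for 31 of the 47 genes. Stretches of 130 bases ending just before the start are printed for 9 of them, to show where letters of the module fall. The levels of these genes differed by role in the results that follow. Capitals mark matches, on either strand, to the Y box core CCAAT, the X box core GCAAC, and the CRE half-site TGACG, and all sequences run 5′ to 3′ on the strand of the gene.
H2-Aa, chr17:34287824-34287953, minus strand: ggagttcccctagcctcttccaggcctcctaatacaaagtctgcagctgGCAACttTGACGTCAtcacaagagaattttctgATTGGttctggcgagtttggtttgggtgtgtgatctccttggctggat
H2-Eb1, chr17:34305737-34305866, plus strand: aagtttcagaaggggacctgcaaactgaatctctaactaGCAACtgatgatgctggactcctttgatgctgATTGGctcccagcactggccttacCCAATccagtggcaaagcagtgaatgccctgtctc
H2-Oa, chr17:34092249-34092378, plus strand: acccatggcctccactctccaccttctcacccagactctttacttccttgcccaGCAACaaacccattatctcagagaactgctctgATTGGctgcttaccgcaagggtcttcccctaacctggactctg
H2-Ob, chr17:34238775-34238904, plus strand: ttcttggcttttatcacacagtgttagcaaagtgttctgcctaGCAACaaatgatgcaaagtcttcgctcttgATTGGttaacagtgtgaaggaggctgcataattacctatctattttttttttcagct
H2-DMb1, chr17:34153061-34153190, plus strand: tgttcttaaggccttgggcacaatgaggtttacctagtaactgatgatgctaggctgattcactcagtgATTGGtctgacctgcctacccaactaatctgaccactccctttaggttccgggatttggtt
H2-K1, chr17:34000348-34000477, minus strand: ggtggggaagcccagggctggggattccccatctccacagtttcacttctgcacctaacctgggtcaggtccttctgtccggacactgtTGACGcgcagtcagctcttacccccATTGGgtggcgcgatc
H2-D1, chr17:35262964-35263093, plus strand: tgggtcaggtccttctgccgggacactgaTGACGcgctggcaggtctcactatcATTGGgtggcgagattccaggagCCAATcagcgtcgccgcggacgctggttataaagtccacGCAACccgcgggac
B2m, chr2:122147557-122147686, plus strand: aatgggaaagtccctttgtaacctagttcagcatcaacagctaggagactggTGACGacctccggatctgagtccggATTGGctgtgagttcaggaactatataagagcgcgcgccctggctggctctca
H2-T3, chr17:36190152-36190281, minus strand: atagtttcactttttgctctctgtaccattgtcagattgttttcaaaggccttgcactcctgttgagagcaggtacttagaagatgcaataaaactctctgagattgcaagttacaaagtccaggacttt

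In these stretches the Y box core of H2-Aa began 48 bases before the start and its X box core 81 bases before it. The corresponding positions were 59 and 91 bases in H2-Eb1, 43 and 76 bases in H2-Oa, and 57 and 87 bases in H2-Ob. Counts over the whole windows follow, taking every window of a gene with several. The Y box core was found in 8 of the 8 class II genes searched and in 2 of the 2 classical class I heavy chain genes. It was found in 10 of 13 nonclassical genes and in 3 of 6 peptide supply genes, where 37.4% of all 32851 promoter windows held it. The X box core was found in 6 of the 8 class II genes, in 1 of the 2 classical class I genes, and in 3 of 13 nonclassical genes. It was also found in 2 of 6 peptide supply genes, Psmb9 and Tap1, where 35.2% of all windows held it. These counts take no account of position. In H2-D1 the X box matches began 212 and 14 bases before the start, the latter nearer the start than its Y box cores. The X box and Y box cores of H2-DMa were found in different windows of that gene. The CRE half-site was found in 1 of the 8 class II genes, in 2 of the 2 classical class I genes, and in 5 of 13 nonclassical genes. It was also found in 2 of 6 peptide supply genes, where 20.8% of all windows held it. These 2 were again Psmb9 and Tap1, which held the Y box core as well. The H2-T3 window held none of these letters. The interferon-stimulated response element core GAAANNGAA was found in 4 of the 31 genes, namely B2m, Erap1, H2-T22, and H2-T23, against 8.56% of all windows. The GAS core TTCNNNGAA was found in 3 of the 31 genes, against 8.3% of all windows. No base of the printed stretches belonged to matches of 2 different motifs. The matches are a description of letters in a window, and most motifs this short are found in many promoters.

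The FPKM values of the 6 libraries were scaled by 18006000 to 18795100 fragments, as recovered from the size of 1 fragment. Fragments recovered in the listed genes came to 19046839 to 19882868, above that divisor in each library. Neither is therefore an exact depth, and the reason was not examined. No row carried the symbol Gm31629, so the genotype labels could not be checked by the level of the deleted gene. The methods state that male mice were used, whereas transcripts of 4 Y-linked genes were found only in the library of Gm31629-/- mouse 1, and Xist was nearly absent from that library alone. Results that rest on this mouse are given with and without it. The epithelial marker Epcam stood at 990.2 to 1179 FPKM in Gm31629-/- mice and 1007 to 1164 FPKM in WT mice. It does not stand for the other epithelial markers, since 12 of the 15 had a negative log2 fold change. Their summed level was 8152 to 9640 FPKM in Gm31629-/- mice and 12917 to 14077 FPKM in WT mice. Markers of other cell types also differed between the groups. Of 8 leukocyte markers, 7 were called higher in Gm31629-/- mice, and their summed level was 132.7 to 216.9 FPKM against 30.0 to 34.4 FPKM in WT mice. The same held for 10 of 10 macrophage markers, 6 of 6 tested B cell markers, 3 of 3 tested dendritic cell markers (9 listed), 7 of 7 neutrophil markers, 3 of 7 tested T cell markers, 7 of 7 endothelial markers, and 8 of 9 tested smooth muscle markers, the last with a summed level of 1142 to 1745 FPKM against 9.21 to 26.9 FPKM. Of 15 epithelial markers, 4 were called lower and none higher. Of all tested genes, 18.4% were called higher and 4.64% lower. In bulk tissue, fewer cells of a type and less RNA per cell cannot be told apart.

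Of the 47 genes, 40 had a mean FPKM of at least 0.5 over the 6 libraries and were tested, among 14657 genes tested in all. A gene was called when its adjusted p from limma was under 0.05 and its log2 fold change, taken on FPKM + 1, was beyond 1 in either direction. In Gm31629-/- mice 19 of the 40 were called higher, where 18.4% of all tested genes were, and 1 was called lower, where 4.64% of all tested genes were. Without the fold threshold, 21 were higher against 28.9% of all tested genes, and 1 was lower against 14.6%. The values of the 3 Gm31629-/- mice lay above those of the 3 WT mice for 22 genes, where 36.3% of all tested genes did so, and below them for 1 gene, against 21.5%. The median log2 fold change of the 40 genes was 0.87, against 0.15 for all tested genes. Without Gm31629-/- mouse 1, 18 genes were called higher and 2 lower. Scaled to leukocyte markers in place of total fragments, 1 of the 40 genes was called higher and 22 lower. On that scale 456 of all 14657 tested genes were called higher and 10300 lower, and their median was −1.82. With 3 mice a group, the smallest p of an exact permutation test on 1 gene is 0.1.

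**Figure D1:**
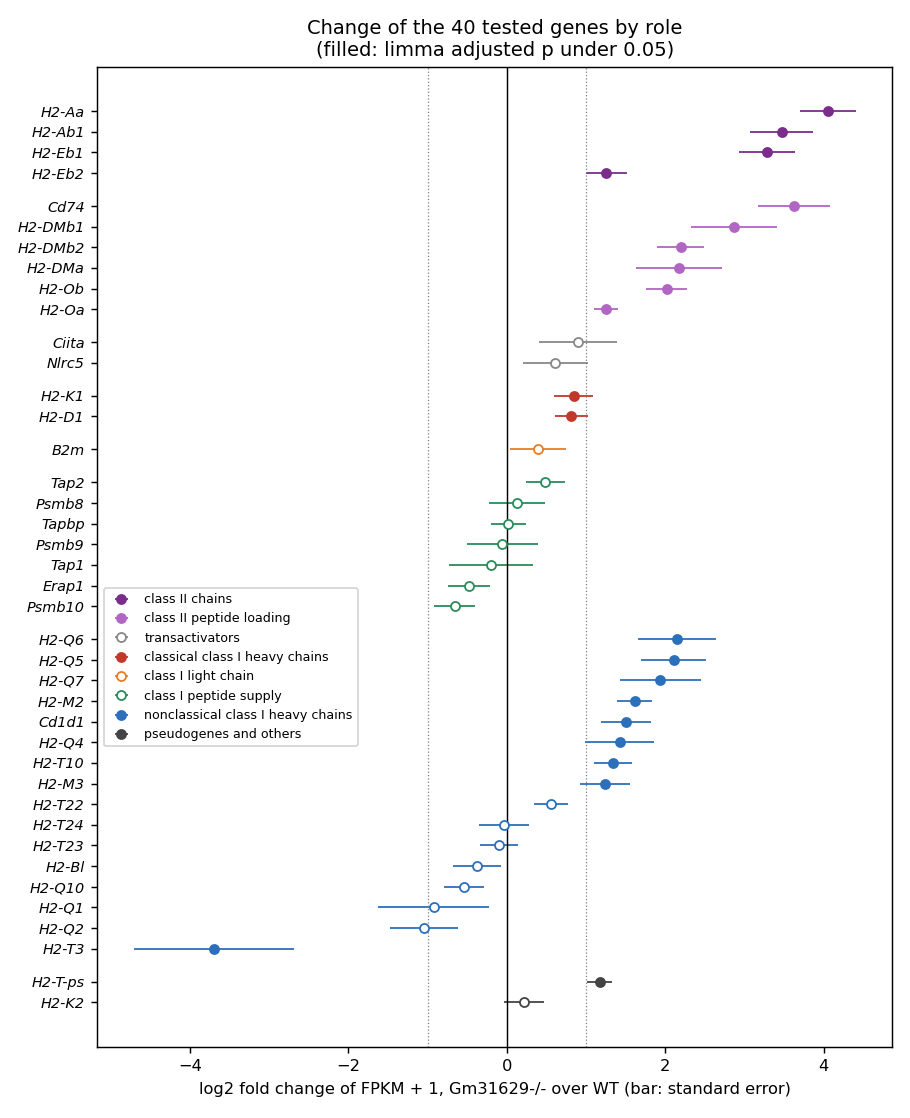
Log2 fold change of FPKM + 1 (horizontal axis, Gm31629-/- over WT, bars are limma standard errors) of the 40 tested genes, grouped by role, with filled points at a limma adjusted p under 0.05 and dotted lines at −1 and 1. The 10 class II genes lie between 1.25 and 4.06, the 7 peptide supply genes between −0.66 and 0.48, and the nonclassical genes on both sides of 0, from −3.70 for H2-T3 to 2.14 for H2-Q6. Scaled to leukocyte markers, H2-DMa and the nonclassical median are negative.

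Class II genes rose together. All 10 were called higher in Gm31629-/- mice, every Gm31629-/- value lay above every WT value of the same gene, and their median log2 fold change was 2.53. They made up 1.11% ± 0.18 of the summed FPKM in Gm31629-/- mice and 0.103% ± 0.0552 in WT mice (SD, n = 3 each). Each of the 10 kept a limma adjusted p under 0.05 with any 1 mouse left out.

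H2-Aa (ENSMUSG00000036594, chromosome 17, 34282744 to 34287823 of GRCm38) encodes the alpha chain of the class II molecule H2-A. Its level was 736, 611, and 499.5 FPKM in Gm31629-/- mice 1 to 3 and 57.1, 20.6, and 38.3 FPKM in WT mice 1 to 3. The lowest Gm31629-/- mouse thus lay far above the highest WT mouse. The means were 616 ± 118 and 38.6 ± 18.3 FPKM (SD, n = 3 each), which is 15.9-fold, or 4.06 ± 0.35 on the log2 scale (limma estimate and standard error, SE, adjusted p = 0.000399).

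H2-Ab1, the beta chain gene of H2-A (ENSMUSG00000073421, chromosome 17, 34257689 to 34269419), had 704, 801, and 549 FPKM in Gm31629-/- mice 1 to 3 and 100.4, 31.6, and 68.8 FPKM in WT mice 1 to 3. The groups did not overlap, and WT mouse 2 was lowest, as it was for H2-Aa. The log2 fold change was 3.47 (SE 0.40, limma adjusted p = 0.000951). The ratio of H2-Aa to H2-Ab1 was 0.763 to 1.045 in Gm31629-/- mice and 0.556 to 0.651 in WT mice, without overlap. This ratio is a description with no test.

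H2-Eb1, the beta chain gene of H2-E, had 484, 645, and 407 FPKM in Gm31629-/- mice 1 to 3 and 77.9, 29.7, and 56.5 FPKM in WT mice 1 to 3 (log2 fold change 3.28, SE 0.35, limma adjusted p = 0.000764). Its ratio to H2-Ab1 was 0.687 to 0.805 in Gm31629-/- mice and 0.776 to 0.940 in WT mice, although its alpha chain partner is defective in this strain. The pseudogene symbol H2-Ea-ps had no row and was not analysed here. H2-Eb2, a related beta chain gene, was near 0 in WT mice, with 0.0734, 0.0754, and 0.313 FPKM, and had 2.14, 0.859, and 2.54 FPKM in Gm31629-/- mice (log2 fold change 1.26, limma adjusted p = 0.00858). On the scale of FPKM + 1, a fold change understates the change of genes as low as this.

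Cd74, the invariant chain gene on chromosome 18, was the most abundant class II gene in both groups. It had 1970, 1984, and 1640 FPKM in Gm31629-/- mice 1 to 3 and 267.5, 69.4, and 180.4 FPKM in WT mice 1 to 3. The means differed 10.8-fold, with a log2 fold change of 3.62 (SE 0.45, limma adjusted p = 0.0013). The ratio of Cd74 to H2-Aa, H2-Ab1, and H2-Eb1 summed was 1.04 ± 0.0820 in Gm31629-/- mice and 1.03 ± 0.157 in WT mice (SD, n = 3 each), with overlap. The chaperone transcript and the chain transcripts thus stood in nearly the same proportion in both groups.

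The genes of H2-DM and H2-DO were lower in level and also rose. H2-DMa and H2-DMb1 encode the chains of the peptide editor H2-DM. H2-DMa had 55.0, 50.5, and 50.7 FPKM in Gm31629-/- mice 1 to 3 and 23.8, 3.72, and 12.9 FPKM in WT mice 1 to 3 (log2 fold change 2.17, SE 0.54, limma adjusted p = 0.0162). Its spread lay almost wholly in the WT group, where mouse 1 was highest and mouse 2 lowest. H2-DMb1 had 104.5, 81.9, and 73.5 FPKM against 24.6, 3.89, and 12.3 FPKM (log2 fold change 2.87, limma adjusted p = 0.00591). The second beta chain gene, H2-DMb2, had 7.79, 5.23, and 13.2 FPKM against 0.822, 1.01, and 1.21 FPKM (log2 fold change 2.20, limma adjusted p = 0.00172). Of all 100-base stretches of the longest transcripts, 13.7% of those of H2-DMb1 and 12.9% of those of H2-DMb2 are found in the other gene, so some fragments could be assigned to either.

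H2-Oa and H2-Ob encode the chains of H2-DO, the inhibitor of H2-DM that is known mainly from B cells. H2-Oa had 1.65, 1.77, and 2.20 FPKM in Gm31629-/- mice 1 to 3 and 0.165, 0.254, and 0.203 FPKM in WT mice 1 to 3 (log2 fold change 1.25, limma adjusted p = 0.00113). H2-Ob had 4.46, 2.35, and 5.23 FPKM against 0.120, 0.123, and 0.371 FPKM, which is 19.6-fold between the means (log2 fold change 2.02, limma adjusted p = 0.00136). Mouse 3 held the highest Gm31629-/- value of 5 genes, namely H2-Oa, H2-Ob, H2-DMb2, H2-Eb2, and the pseudogene H2-T-ps, while H2-Aa, H2-Ab1, H2-Eb1, Cd74, and H2-DMb1 had their lowest there. The B cell marker Cd79a was also highest in mouse 3 and lowest in mouse 2, at 19.2, 9.37, and 30.4 FPKM in mice 1 to 3, and H2-Ob, H2-DMb2, and H2-Eb2 had the same order. The part of B cells in these values was not tested.

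**Figure D2:**
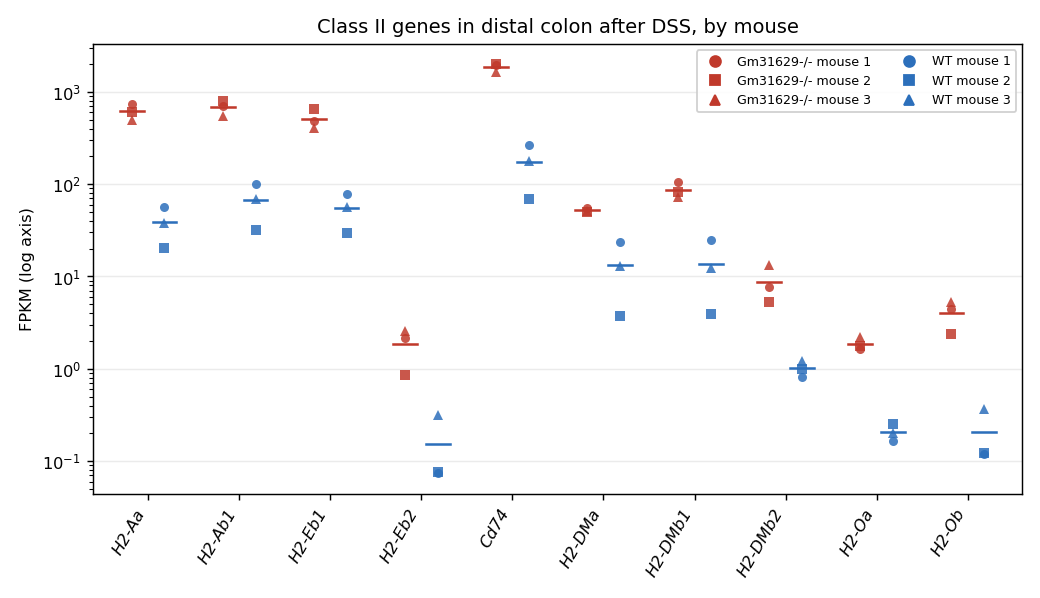
FPKM (vertical log axis) of the 10 class II genes in each mouse, with Gm31629-/- mice in red, WT mice in blue, symbols for mice 1 to 3, and bars for the group means. Every red symbol lies above every blue symbol of the same gene, and WT mouse 2 is lowest of the WT mice for H2-Aa, H2-Ab1, H2-Eb1, Cd74, H2-DMa, and H2-DMb1.

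Leukocyte transcripts rose in the same libraries as the class II genes. Ptprc, which encodes the leukocyte antigen CD45, had 3.06, 4.58, and 2.54 FPKM in Gm31629-/- mice 1 to 3 and 0.410, 0.273, and 0.163 FPKM in WT mice 1 to 3 (log2 fold change 1.75, limma adjusted p = 0.0011). The ratio of H2-Ab1 to Ptprc was 174.8 to 230.4 in Gm31629-/- mice and 115.7 to 423.1 in WT mice, so it overlapped between the groups. Against the geometric mean of the 8 leukocyte markers, H2-Ab1 stood at 38.4 to 52.7 in Gm31629-/- mice and 13.1 to 38.4 in WT mice, which did not overlap but met at their ends. The summed level of the B cell markers was 21.1 to 68.8 FPKM in Gm31629-/- mice against 2.98 to 5.10 FPKM in WT mice, that of the macrophage markers 359 to 717 FPKM against 41.3 to 48.3 FPKM, and that of the dendritic cell markers 14.6 to 35.2 FPKM against 2.39 to 2.66 FPKM, with Xcr1 and Siglech listed at 0 in 1 WT library each. When each library was scaled to the leukocyte markers, H2-Aa and H2-Ob were the 2 genes with an adjusted p under 0.05 and a positive log2 fold change, at 1.45 (limma adjusted p = 0.00635) and 0.82 (limma adjusted p = 0.0231), and the median over all tested genes was then −1.82. On that scale the median was 0.76 for the 4 chain genes and 0.34 for the 6 loading genes, with H2-DMa at −0.32. The part of a greater share of leukocytes in the class II values was not tested.

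Other genes of the class II route were also measured. Of 11 such genes, 4 were called higher, against 18.4% of all tested genes, and none lower. Their median log2 fold change was 0.76. Ctss, the lysosomal protease that trims the invariant chain, had 578, 413, and 451 FPKM in Gm31629-/- mice 1 to 3 and 213, 212, and 169.9 FPKM in WT mice 1 to 3 (log2 fold change 1.27, limma adjusted p = 0.0024). Ctsl, another lysosomal protease, rose by 1.18 on the log2 scale (limma adjusted p = 0.00222). Cd83, which stabilizes class II at the cell surface, rose by 1.96 on the log2 scale (limma adjusted p = 0.000859), and March1, a ubiquitin ligase that removes class II from the surface, rose by 1.13 on that scale (limma adjusted p = 0.0067).

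The transactivators did not pass the test. Ciita had 9.64, 7.52, and 6.67 FPKM in Gm31629-/- mice 1 to 3 and 8.67, 1.17, and 4.13 FPKM in WT mice 1 to 3. WT mouse 1 lay among the Gm31629-/- mice, and the log2 fold change was 0.90 (SE 0.50, limma adjusted p = 0.179). Without WT mouse 1 it was 1.41 (limma adjusted p = 0.0405). The ratio of H2-Ab1 to Ciita was 73.0 to 106.6 in Gm31629-/- mice and 11.6 to 26.9 in WT mice, which is a description with no test. Thus WT mouse 1 had nearly as much Ciita transcript as Gm31629-/- mouse 1 with 100.4 against 704 FPKM of H2-Ab1. Nlrc5 had 8.80, 11.9, and 5.28 FPKM against 8.62, 2.52, and 5.51 FPKM (log2 fold change 0.61, SE 0.41, limma adjusted p = 0.255).

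Of 17 tested regulators of MHC transcription other than these, 1 was called higher, against 18.4% of all tested genes, and 1 lower, against 4.64%, so the regulators as a list did not stand out from other genes. Jak2, a kinase of the interferon gamma receptor, had 17.3 to 23.97 FPKM in Gm31629-/- mice and 6.96 to 11.7 FPKM in WT mice (log2 fold change 1.06, limma adjusted p = 0.00854). Irf8, a transcription factor of myeloid and B cells that interferon gamma also induces, went the other way, with 29.9, 21.7, and 17.9 FPKM in Gm31629-/- mice 1 to 3 and 73.2, 30.2, and 51.6 FPKM in WT mice 1 to 3 (log2 fold change −1.07, limma adjusted p = 0.0369). Irf1, which carries the interferon signal to MHC promoters, did not pass the test (log2 fold change −0.22, limma adjusted p = 0.518), nor did Rfx5, the X box factor (0.07, limma adjusted p = 0.76). Ifng was below the filter, at 0.0841 to 0.504 FPKM in Gm31629-/- mice. It had 0.417 FPKM in WT mouse 1 and was listed at 0 in WT mice 2 and 3, so the groups overlapped. Genes whose groups overlap at 3 mice each may still differ.

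The classical class I heavy chains were far more abundant in WT mice than the class II genes, and were higher in Gm31629-/- mice by smaller folds. H2-K1 (ENSMUSG00000061232, chromosome 17, 33996017 to 34000347) had 1899, 1789, and 1234 FPKM in Gm31629-/- mice 1 to 3 and 964, 723, and 1045 FPKM in WT mice 1 to 3. The groups did not overlap, and the means differed 1.80-fold (log2 fold change 0.84, SE 0.25, limma adjusted p = 0.0288). H2-D1 (ENSMUSG00000073411, chromosome 17, 35262730 to 35267499) had 1646, 1848, and 1344 FPKM against 979, 765, and 1003 FPKM, a 1.76-fold difference (log2 fold change 0.82, SE 0.21, limma adjusted p = 0.0182). Neither passed the fold threshold. In the longest transcripts, no 100-base stretch of H2-K1 is found in another gene, against 4.64% of those of H2-D1. Another H2-K1 transcript shares such stretches with H2-Q5 and H2-Q10. Both lost the adjusted p under 0.05 without WT mouse 1, 2, or 3 (H2-K1 0.0777, 0.0994, and 0.064, and H2-D1 0.0568, 0.0695, and 0.0556), and H2-K1 also without Gm31629-/- mouse 1 or 2 (0.0717 and 0.0533). Without the filter on low values the adjusted p was 0.096 for H2-K1 and 0.0766 for H2-D1, and scaled to the leukocyte markers both log2 fold changes were negative, at −1.79 and −1.81.

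B2m, the light chain shared by class I molecules, was the most abundant of the 47 genes in each of the 6 libraries, with 4096, 3376, and 1967 FPKM in Gm31629-/- mice 1 to 3 and 2848, 1624, and 2593 FPKM in WT mice 1 to 3. Gm31629-/- mouse 3 lay within the WT range, and the log2 fold change was 0.39 (SE 0.35, limma adjusted p = 0.389). H2-Aa, H2-Ab1, and H2-Eb1 summed reached 0.543 to 0.566 of H2-K1 and H2-D1 summed in Gm31629-/- mice, against 0.0550 to 0.121 in WT mice. The balance of the main class II to the main class I transcripts thus differed between the groups by more than it varied within either, which is a description with no test.

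The genes that supply peptide to class I showed no call in either direction. All 7 were tested, the values of the groups overlapped for each of the 7, and the median log2 fold change was −0.06, which became 0.49 when the libraries were scaled to epithelial markers. Tap1, a subunit of the peptide transporter, had 69.8, 57.1, and 29.5 FPKM in Gm31629-/- mice 1 to 3 and 110.8, 26.3, and 60.5 FPKM in WT mice 1 to 3 (log2 fold change −0.20, SE 0.53, limma adjusted p = 0.787). The WT mice spread more widely than the Gm31629-/- mice. Tap2, the other subunit, had 16.5, 21.5, and 19.5 FPKM against 18.9, 9.46, and 13.2 FPKM (log2 fold change 0.48, SE 0.25, limma adjusted p = 0.148). Without WT mouse 1 its log2 fold change was 0.72 (limma adjusted p = 0.0499).

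Tapbp, which encodes the loading chaperone tapasin, had nearly the same level in the 3 Gm31629-/- mice, at 140.8, 138.3, and 136.8 FPKM, and 176.7, 99.99, and 144.3 FPKM in WT mice 1 to 3 (log2 fold change 0.02, SE 0.22). Erap1, the trimming peptidase, had 8.20, 7.59, and 5.25 FPKM against 14.5, 8.99, and 7.54 FPKM (log2 fold change −0.47, limma adjusted p = 0.183). The immunoproteasome subunits did not pass the test either. Psmb8 had 13.5, 17.2, and 11.9 FPKM against 19.7, 6.86, and 15.0 FPKM (log2 fold change 0.13, limma adjusted p = 0.785), and Psmb9 had 23.2, 28.1, and 20.1 FPKM against 46.2, 11.4, and 27.6 FPKM (log2 fold change −0.06, limma adjusted p = 0.927).

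Psmb10 had 109.7, 113.4, and 81.4 FPKM in Gm31629-/- mice 1 to 3 and 216.4, 113.4, and 164.5 FPKM in WT mice 1 to 3 (log2 fold change −0.66, SE 0.26, limma adjusted p = 0.0763). WT mouse 2 equalled Gm31629-/- mouse 2, and without WT mouse 2 the log2 fold change was −0.90 (limma adjusted p = 0.0299). Scaled by the median ratio it was −0.83 (limma adjusted p = 0.032). The constitutive subunits that these replace also did not pass the test (Psmb5 −0.34, Psmb6 −0.003, and Psmb7 −0.43). Of 15 other class I loading genes, proteasome genes included, none was called, with a median log2 fold change of −0.30, and Psme3, a proteasome activator subunit, was lower by 0.69 on the log2 scale (limma adjusted p = 0.0132) without passing the fold threshold.

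**Figure D3:**
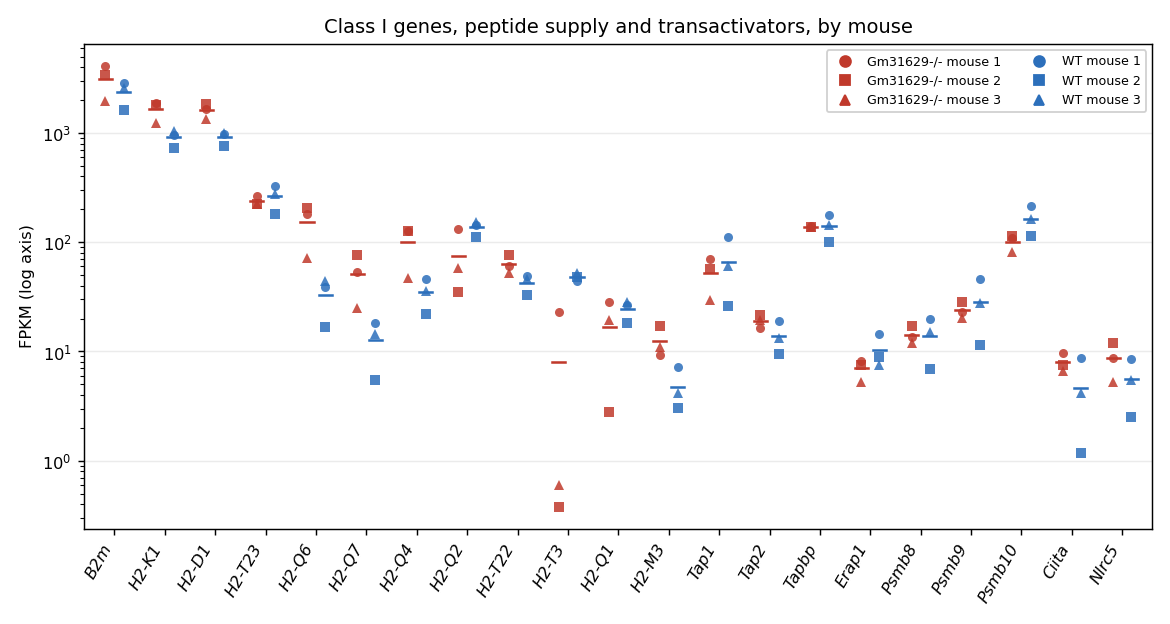
FPKM (vertical log axis) of class I genes, peptide supply genes, and the 2 transactivators in each mouse, with Gm31629-/- mice in red, WT mice in blue, symbols for mice 1 to 3, and bars for the group means. H2-K1 and H2-D1 are separated between the groups, Tap1 and the Psmb genes overlap, and the 3 Gm31629-/- mice of H2-T3 span 0.377 to 23.1 FPKM.

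The nonclassical genes moved in both directions. Of 16 tested, 8 were called higher, against 18.4% of all tested genes, and 1 lower, against 4.64%. The median log2 fold change was 0.90, or −1.32 when the libraries were scaled to leukocyte markers. H2-Q6 and H2-Q7 encode the Qa-2 antigen. H2-Q6 had 181, 207, and 71.1 FPKM in Gm31629-/- mice 1 to 3 and 38.6, 16.8, and 44.1 FPKM in WT mice 1 to 3 (log2 fold change 2.14, SE 0.49, limma adjusted p = 0.0122). H2-Q7 had 52.9, 76.4, and 24.98 FPKM against 18.1, 5.48, and 14.6 FPKM (log2 fold change 1.94, limma adjusted p = 0.0204). In both genes Gm31629-/- mouse 3 was the lowest of its group and still above every WT mouse. The adjusted p of H2-Q7 was 0.0543 without Gm31629-/- mouse 2, 0.0504 without WT mouse 2, and 0.0512 without WT mouse 3.

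H2-Q5 is annotated as a polymorphic pseudogene. It had 33.6, 37.4, and 14.7 FPKM in Gm31629-/- mice 1 to 3 and 6.56, 3.04, and 7.59 FPKM in WT mice 1 to 3 (log2 fold change 2.104, limma adjusted p = 0.00683). H2-Q4 had 126.9, 125.4, and 46.8 FPKM against 46.5, 22.1, and 35.8 FPKM (log2 fold change 1.42, limma adjusted p = 0.0342). For H2-Q4 the lowest Gm31629-/- mouse and the highest WT mouse nearly met, and the adjusted p passed in 2 of 6 fits with 1 mouse left out, being 0.0875 and 0.0911 without Gm31629-/- mouse 1 or 2 and 0.104 and 0.0901 without WT mouse 2 or 3. Without the filter on low values it was 0.0691. The Q genes are near copies. Of the 100-base stretches of the longest transcript, 13.5% of H2-Q7, 12.9% of H2-Q5, 10.8% of H2-Q6, and 2.24% of H2-Q4 are found in another gene, so fragments could be split between them.

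Their neighbours H2-Q1, H2-Q2, and H2-Q10 did not pass the test. H2-Q2 had 131, 35.4, and 58.7 FPKM in Gm31629-/- mice 1 to 3 and 145, 111, and 153 FPKM in WT mice 1 to 3 (log2 fold change −1.05, SE 0.43, limma adjusted p = 0.0889). Gm31629-/- mouse 1 lay within the WT range, and without it the log2 fold change was −1.55 (limma adjusted p = 0.00522). H2-Q1 had 28.2, 2.79, and 19.5 FPKM against 26.5, 18.4, and 28.2 FPKM (log2 fold change −0.93, limma adjusted p = 0.315), with Gm31629-/- mouse 2 far below the other 5 mice. H2-Q10, which is known for secretion by liver, had 1.13 to 2.18 FPKM against 1.67 to 3.42 FPKM (log2 fold change −0.54, limma adjusted p = 0.125).

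Of the M genes and Cd1d1, 3 were called higher. Cd1d1, which presents lipids to natural killer T cells, had 5.18, 8.37, and 2.80 FPKM in Gm31629-/- mice 1 to 3 and 1.05, 1.15, and 1.18 FPKM in WT mice 1 to 3 (log2 fold change 1.51, limma adjusted p = 0.00859). Its near copy Cd1d2 was at 0 to 0.0712 FPKM. H2-M3, which presents formyl peptides of bacteria and mitochondria, had 9.30, 17.1, and 11.02 FPKM against 7.18, 3.01, and 4.14 FPKM (log2 fold change 1.24, limma adjusted p = 0.0178), with an adjusted p of 0.0559 without WT mouse 2 and 0.0687 without WT mouse 3. H2-M2 had 1.89, 3.46, and 3.44 FPKM against 0.453, 0.143, and 0.206 FPKM (log2 fold change 1.61, limma adjusted p = 0.00179).

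Among the T genes, H2-T10 rose, H2-T3 fell, and the most abundant did not pass the test. H2-T23, which encodes Qa-1, the ligand of the CD94 and NKG2A receptor, had 264, 224, and 224 FPKM in Gm31629-/- mice 1 to 3 and 330.4, 179.7, and 278 FPKM in WT mice 1 to 3 (log2 fold change −0.11, SE 0.24, limma adjusted p = 0.745). H2-T22 and H2-T10 are known for ligands of some gamma delta T cells, though H2-T10 is annotated as a polymorphic pseudogene. H2-T22 had 60.3, 76.4, and 51.8 FPKM against 48.6, 32.9, and 45.8 FPKM, without overlap (log2 fold change 0.56, limma adjusted p = 0.068), and scaled to epithelial markers the log2 fold change was 1.12 (limma adjusted p = 0.0122). H2-T10 had 4.86, 5.45, and 3.01 FPKM against 1.06, 0.764, and 1.56 FPKM (log2 fold change 1.34, limma adjusted p = 0.00481). Of the 100-base stretches of the longest H2-T22 and H2-T10 transcripts, 9.38% and 6.05% are found in another gene. H2-T24 had 4.36, 6.13, and 4.27 FPKM against 8.65, 3.16, and 4.44 FPKM (log2 fold change −0.04). H2-Bl had 0.0967 to 1.07 FPKM against 0.693 to 1.90 FPKM (log2 fold change −0.38).

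H2-T3 (ENSMUSG00000054128, chromosome 17, 36185572 to 36190287) was called lower, alone among the 40 tested genes. It encodes the thymus leukemia antigen, a molecule of intestinal epithelium that binds the CD8 alpha homodimer of intraepithelial lymphocytes. It had 43.7, 47.8, and 52.5 FPKM in WT mice 1 to 3 and 23.1, 0.377, and 0.599 FPKM in Gm31629-/- mice 1 to 3, from 1159, 19, and 30 fragments. All 3 Gm31629-/- mice lay below the WT mice, but mouse 1 far less so than mice 2 and 3. The log2 fold change was −3.70 (SE 1.01, limma adjusted p = 0.0229). Without Gm31629-/- mouse 1 it was −5.04 (limma adjusted p = 0.000185), and without any other 1 mouse the adjusted p was between 0.0611 and 0.0793. Without the filter on low values it was 0.0521.

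The epithelial transcription factor Cdx2 had a like distribution, with 82.1, 11.7, and 14.9 FPKM in Gm31629-/- mice 1 to 3 and 200.4, 238.1, and 234.3 FPKM in WT mice 1 to 3 (log2 fold change −3.14, limma adjusted p = 0.00847). Epcam did not differ in this way (log2 fold change 0.005, limma adjusted p = 0.982), and the ratio of H2-T3 to Epcam was 0.0383 to 0.0521 in WT mice and 0.000381 to 0.0196 in Gm31629-/- mice. The ratio of H2-T3 to Krt8, an epithelial keratin that was itself called lower, was 0.0104 to 0.0129 in WT mice and 0.000176 to 0.014 in Gm31629-/- mice, with overlap through mouse 1. Of the 15 epithelial markers 12 had negative log2 fold changes. For 9 of them the Gm31629-/- values lay wholly below the WT values, against 21.5% of all tested genes. Gm31629-/- mouse 1, the mouse with most H2-T3 in its group, is also the only one with Y-linked transcripts. The summed level of the 15 epithelial markers was 8152 to 9640 FPKM in Gm31629-/- mice and 12917 to 14077 FPKM in WT mice, with none at 0. The part of sex and of the epithelial markers in the H2-T3 values was not tested.

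The other pseudogenes and the lowest genes complete the list. H2-Q5, H2-T10, and H2-Bl, given above, are annotated as polymorphic pseudogenes. The pseudogene H2-T-ps had 3.01, 3.40, and 3.88 FPKM in Gm31629-/- mice 1 to 3 and 1.06, 0.833, and 0.997 FPKM in WT mice 1 to 3 (log2 fold change 1.17, limma adjusted p = 0.00168). H2-K2 had 30.6, 16.2, and 29.7 FPKM against 19.7, 23.6, and 19.8 FPKM (log2 fold change 0.22, limma adjusted p = 0.503), and 0.50 without Gm31629-/- mouse 2 (limma adjusted p = 0.0379). The other 7 genes were below the filter. H2-M5 had 7, 6, and 4 fragments in Gm31629-/- mice 1 to 3 and 0 in each WT mouse, where a count of 0 allows up to 3 fragments. H2-Q3, annotated as a pseudogene, had 1, 2, and 3 fragments against 13, 4, and 5. H2-M10.2, H2-M9, H2-M6-ps, H2-Pa, and H2-Pb had at most 2 fragments in any library. A further 10 H2- symbols of the GENCODE M21 annotation were not among the rows and were not analysed here.

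Neighbours along the MHC differed in their change. On chromosome 17, where 40 of the 47 genes lie, the class II genes stand in a block from 96.3 to 329.6 kb after the start of H2-K1. Psmb9, Tap1, Psmb8, and Tap2 lie inside this block, from 186.0 to 207.5 kb, between H2-DMb1 and H2-Ob. Their log2 fold changes were −0.06, −0.20, 0.13, and 0.48, while those of the flanking H2-DMb1 and H2-Ob were 2.87 and 2.02. In the Q region the genes that were called higher, H2-Q4 to H2-Q7, lie together from 1383.6 to 1443.1 kb, with H2-Q1 and H2-Q2 before them and H2-Q10 after them. In the T region H2-T10 at 2119.9 kb was called higher and the next tested gene, H2-T3 at 2189.6 kb, was called lower.

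**Figure D4:**
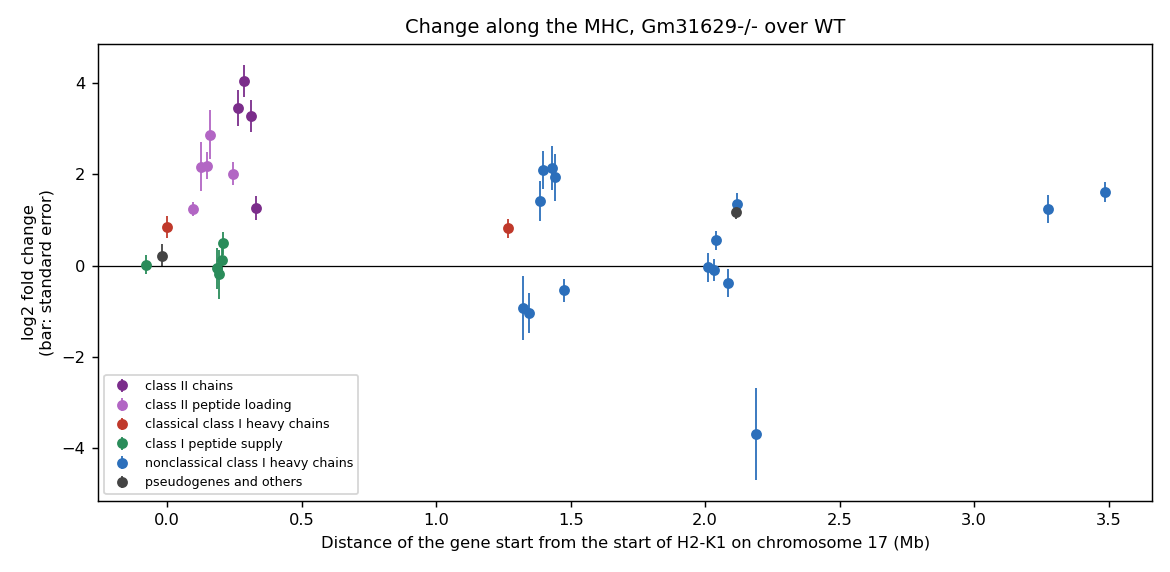
Log2 fold change of FPKM + 1 (vertical axis, Gm31629-/- over WT, bars are limma standard errors) of the tested genes on chromosome 17 against the distance of the gene start from that of H2-K1 in Mb, colored by role. The peptide supply genes near 0.2 Mb lie near 0 inside the block of class II genes, and H2-T3 near 2.2 Mb lies far below its neighbours.

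The WT mice differed among themselves in these genes by more than in most others. WT mouse 2 was the lowest of the WT mice for 32 of the 40 tested genes, or 80%, where it was lowest for 32.6% of all tested genes. WT mouse 1 was the highest for 25 of them, or 62.5%, against 28% of all tested genes. The full order of mouse 1, mouse 3, and mouse 2 was found for 24 of the 40 genes, or 60%, against 14% of all tested genes. In the 30 of these genes whose mean FPKM reached 5, the median coefficient of variation was 42.6% among WT mice and 21.6% among Gm31629-/- mice, where the 7242 genes of the table at this level had 13% and 19.2%. The same order was found for 8 of 15 other class I loading genes, 4 of 17 regulators, 3 of 8 leukocyte markers, and 1 of 10 macrophage markers. The genes are not independent of each other, so these counts describe 3 mice and carry no test.

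Among Gm31629-/- mice, mouse 3 was the lowest for 24 of the 40 tested genes, or 60%, where it was lowest for 44.1% of all tested genes. H2-K1 and H2-D1 together had a mean log2 level above the WT mean by 0.97, 1.01, and 0.51 in mice 1 to 3, and the class II genes by 2.71, 2.51, and 2.64. The leukocyte markers stood at 1.87, 2.43, and 1.96, the B cell markers at 1.94, 1.22, and 2.57, and the macrophage markers at 2.25, 3.22, and 2.23. The near level class II mean is made of genes that were lowest in mouse 3, such as H2-Aa, H2-Ab1, H2-Eb1, Cd74, and H2-DMb1, and genes that were highest there, H2-Oa, H2-Ob, H2-DMb2, and H2-Eb2. The summed level of the 10 class II genes was 4070, 4185, and 3243 FPKM in mice 1 to 3.

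**Figure D5:**
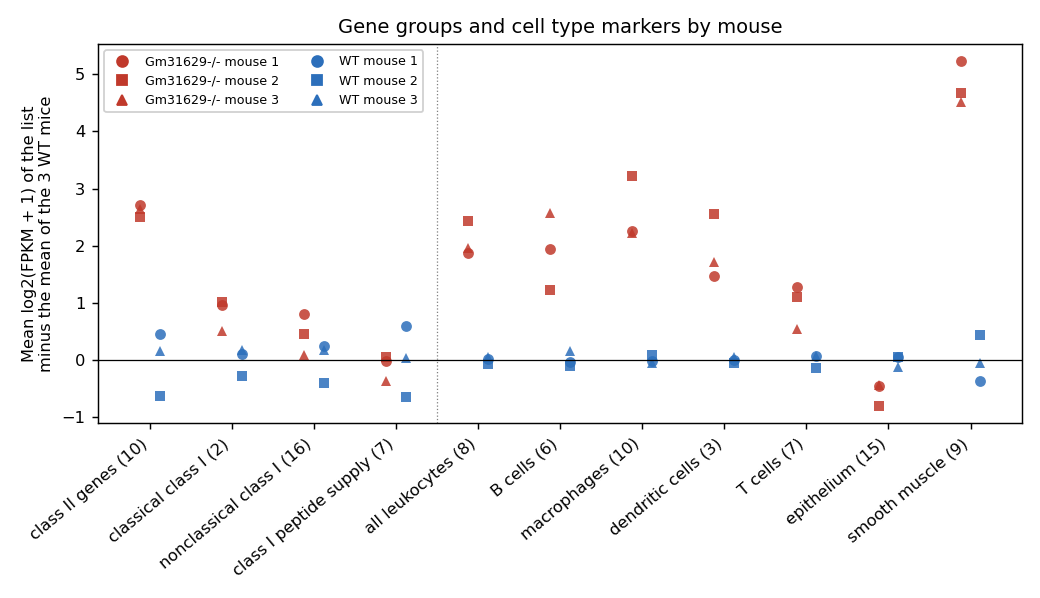
Mean log2(FPKM + 1) of each list (number of tested genes in brackets) in each mouse, minus the mean of the 3 WT mice (vertical axis), with Gm31629-/- mice in red and WT mice in blue. The class II list stands 2.51 to 2.71 above the WT mean in Gm31629-/- mice, the peptide supply list overlaps between the groups, and the leukocyte, B cell, macrophage, dendritic cell, and smooth muscle lists are higher in all 3 Gm31629-/- mice.

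Receptors and partners of MHC molecules were measured in the same libraries. Of 8 tested genes listed as receptors for MHC molecules, 6 were called higher, against 18.4% of all tested genes. Pirb, an inhibitory receptor for class I on myeloid and B cells, had 5.66, 15.7, and 6.15 FPKM in Gm31629-/- mice 1 to 3 and 0.326, 0.373, and 0.357 FPKM in WT mice 1 to 3 (log2 fold change 2.78, limma adjusted p = 0.00129). Cd4, the coreceptor for class II, had 2.75, 4.88, and 4.42 FPKM against 0.617, 0.455, and 0.475 FPKM (log2 fold change 1.70, limma adjusted p = 0.00118). Lag3, which also binds class II, rose by 1.48 on the log2 scale (limma adjusted p = 0.00374). Lilrb4a, whose ligands were not examined here, rose by 1.45 on that scale (limma adjusted p = 0.00452). Of 6 costimulatory genes, 5 were called higher, against 18.4% of all tested genes. They were led by Cd86 at 1.77 (limma adjusted p = 0.00269), Cd40 at 1.504 (limma adjusted p = 0.01), and Cd80 at 1.45 (limma adjusted p = 0.0181). Of 6 tested class I-like genes outside the H2 names, 2 were called higher, against 18.4% of all tested genes. These were Procr, the endothelial protein C receptor gene (log2 fold change 1.89, limma adjusted p = 0.0131), and Mr1, which presents microbial vitamin metabolites (1.28, limma adjusted p = 0.000792).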

How the data were processed

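RNA-Seq was performed on distal colon of 3 Gm31629-/- and 3 WT mice, with libraries prepared from 1 μg of total RNA. The authors deposited 1 table of FPKM values with a column per mouse, and HISAT2 2.1.0, HTSeq 0.6.0, and GRCm38 are named in the submitters' processing notes, with the annotation not given in the sources used here. The methods describe total RNAs as pooled, but the columns were treated as separate mice. FPKM is scaled by gene length and library depth and is not corrected for a few abundant transcripts that take up fragments. The DEGseq test named in the methods needs read counts and was not repeated.

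Symbols and positions came from GENCODE M21 (27488 of 27546 identifiers matched). Fragments were recovered from the size of 1 fragment, and of the values worth no more than 20 fragments, 96.3% to 97.2% lay at most 0.1 from a whole number. A listed 0 allows up to 3 fragments, and such limits cover counting error only. Groups came from the sample labels. Values were set to log2(FPKM + 1), and the 14657 genes whose mean FPKM was 0.5 or more were compared with limma 3.58.1 (R 4.3.3, lmFit, then eBayes fitted with a mean-variance trend) and adjusted together by Benjamini-Hochberg. In a test on simulated data, 135 of 200 genes planted at a log2 change of 1.5 and 188 of 200 at 2.5 were called, with 7 and 6 other genes called among 14657. The simulation gave both groups the same spread. In the data, libraries correlated at 0.915 to 0.937 within Gm31629-/- mice and 0.979 to 0.985 within WT mice. It also changed fewer genes than the 2704 called higher and 680 called lower here, so its rates need not hold for these data.

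The p-values measure the spread between these libraries. Members whose mean FPKM reached 5 are given by mouse and the others by range or, where called, by name. Up to 4 tested genes with the largest changes are named from each further list, with Ptprc, Ifng, Irf1, Rfx5, and Psmb5 to Psmb7 whatever their values (1 further gene is not reported here), and the choice of Epcam and Cd1d2 was made with their values in view. The members and lists were chosen with earlier results of these data known. Promoter sequences came from RefSeq (GRCm38.p6), and figures were drawn with matplotlib 3.10.9. Alternatives were a pseudocount of 0.1, no filter or one at a mean FPKM of 5, rescaling to equal sums, to the median ratio, or to epithelial or leukocyte markers, eBayes without a trend, a replicate block, each mouse left out, voom on the fragments, and limma treat.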

Additional observations from a re-analysis of the deposited data

How the results depend on the processing

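Of 38 named genes, all 38 kept their direction and side of the threshold with a pseudocount of 0.1, with libraries rescaled to the same sum, without a trend, and with voom on recovered fragments, 34 did so without the filter, 35 with median ratio scaling, 29 with scaling to epithelial markers, 3 with scaling to leukocyte markers, and 29 to 34 with 1 mouse left out. The median of all tested genes was 0.15, and 0.02, 0.58, and −1.82 under the last 3 scalings. The cause of the changes that follow was not tested, except that fewer genes are tested under a stricter filter and fewer mice when 1 is left out.

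The median of the class II loading genes was 2.95 with the pseudocount of 0.1, 2.87 at a mean FPKM of at least 5, and 3.09 with voom. Without the filter, 0 members were called lower or had a lower adjusted p under 0.05, with H2-K1, H2-D1, H2-Q4, and H2-T3 losing that p, and the nonclassical median was 0.10. At a mean FPKM of at least 5, 956 genes were called higher, among them 11 members, and 13 members had a higher adjusted p under 0.05. With limma treat and a null of 1 on the log2 scale, 795 genes were called higher and 117 lower, with 6 members higher and 0 lower. By median ratio, 2 members had a lower adjusted p under 0.05, and Psmb8 (−0.029) and Tapbp (−0.15) turned negative.

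Scaled to epithelial markers, 4341 genes were called higher and 262 lower, the medians were 3.94 for class II chains, 1.399 for classical class I, and 0.49 for peptide supply, and Erap1 (0.038), Psmb9 (0.49), Tap1 (0.36), H2-T23 (0.46), and H2-T24 (0.44) turned positive. Tap2 (1.02), H2-T22 (1.12), H2-K2 (0.76), and Ciita (1.36) then passed an adjusted p of 0.05. Scaled to leukocyte markers, 456 genes were called higher and 10300 lower, with 1 member called higher and 22 lower and 2 and 23 at the adjusted p alone. The medians were then 0.76 for class II chains, 0.34 for class II loading, −1.80 for classical class I, −1.32 for nonclassical class I, and −2.59 for peptide supply. The genes that turned negative were H2-DMa (−0.32), H2-K1 (−1.79), H2-D1 (−1.81), B2m (−2.24), Psmb8 (−2.29), Tap2 (−1.98), Tapbp (−2.59), Cd1d1 (−0.33), H2-M3 (−1.06), H2-Q4 (−1.16), H2-Q5 (−0.29), H2-Q6 (−0.44), H2-Q7 (−0.57), H2-T10 (−0.43), H2-T22 (−2.02), H2-K2 (−2.28), H2-T-ps (−0.51), Ciita (−1.25), and Nlrc5 (−1.63).

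With 1 mouse left out, 16 to 20 members were called higher and 0 to 2 lower, as at the adjusted p alone for lower. The median of the peptide supply genes ranged from −0.54 to 0.29, being 0.05 without Gm31629-/- mouse 3, 0.29 without WT mouse 1, and 0.02 without WT mouse 3. Ranges that crossed 0 were −0.27 to 0.42 for Psmb8, −0.58 to 0.39 for Psmb9, −0.73 to 0.29 for Tap1, −0.20 to 0.20 for Tapbp, −0.355 to 0.083 for H2-T23, and −0.30 to 0.30 for H2-T24.

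Mice with the same number did not deviate together (correlations 0.036, −0.108, and 0.014), so the numbers were not taken as pairs. With the replicate block, 19 members had a higher adjusted p under 0.05 against 21 without it, with H2-D1 and H2-K1 no longer passing, and 2709 genes were called higher and 648 lower.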
